A study of Mus musculus with 12 samples.

Results

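The genes described here are 39 unfolded-protein and integrated stress response genes, taken by symbol from a table of 50674 mouse genes. Each symbol matched 1 row, and all 39 passed the filter on low counts that left 17457 genes for testing. They were sorted by role into an ER arm of 20 genes, a sensor group of 4 and an Atf4 arm of 15. The ER arm held 14 chaperones and folding enzymes of the endoplasmic reticulum (ER) and 6 genes of ER-associated degradation. The sensor group held the sensor genes Ern1, Atf6 and Eif2ak3, together with Xbp1, which does not encode a sensor. The Atf4 arm held Atf4 with 8 partners, targets and feedback genes and 6 enzymes of amino acid and one-carbon metabolism. They were measured in polyadenylated RNA of natural killer (NK) cells from the spleen, expanded in interleukin-2, in 12 libraries. The groups were Mirc11-/- cells after 6 h of stimulation through NKG2D, an activating receptor of NK cells, unstimulated Mirc11-/- cells, wild-type cells stimulated in the same way, and unstimulated wild-type cells, with 3 biological replicates in each. Mirc11 is the gene cluster of the microRNAs miR-23a, miR-27a and miR-24-2. All animals carried the strain label C57BL/6, all cells had been expanded in interleukin-2, and the sources used here do not say how the deletion was made, how old the mice were or which agent stimulated NKG2D. The comparisons ask how these stress-response genes change when NK cells are stimulated, and whether the change differs in cells that lack the microRNA cluster.

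The unfolded protein response adjusts the folding capacity of the ER to the load of secreted and membrane proteins. Its sensors are IRE1 (encoded by Ern1), which splices Xbp1 mRNA, ATF6, which is cut to release a transcription factor, and PERK (encoded by Eif2ak3), a kinase that phosphorylates the translation factor eIF2. The first 2 raise chaperone and degradation genes through short promoter sequences called ER stress response elements. PERK belongs to the integrated stress response, in which several kinases phosphorylate eIF2, general translation falls and Atf4 mRNA is translated more. ATF4 protein then acts with C/EBP-family partners at a composite element upstream of amino acid enzymes, transporters and feedback genes. NK cells use the ER for their cytokines and granule proteins.

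Promoter elements are shown because each arm is known by the short sequence its transcription factors read. Windows of 250 bases before to 50 bases after the gene start were available from RefSeq (GRCm38.p6) for 34 of the 39 members, and Derl1, Hyou1, Cth, Atf6 and Manf had none. The ER stress response element was searched on both strands as CCAAT and CCACG with 9 bases of any kind between them. It stood in 8 of 17 ER-arm windows (47.1%), in 0 of 14 Atf4-arm windows, in 0 of 3 windows of the sensor group and in 37 of 27025 windows of all genes (0.137%). The 8 were Calr, Canx, Creld2, Dnajc3, Hsp90b1, Hspa5, Pdia6 and Syvn1. Examples follow, written 5′ to 3′ in the direction of the element, with its fixed letters in capitals.
Hspa5: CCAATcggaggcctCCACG
Hsp90b1: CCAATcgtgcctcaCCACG
Calr: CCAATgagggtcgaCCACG
Creld2: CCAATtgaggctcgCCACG
Pdia6: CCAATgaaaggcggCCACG
These lie at chr2:34772025-34772043 (plus strand), chr10:86705533-86705551 (plus strand), chr8:84847075-84847093 (plus strand), chr15:88819520-88819538 (minus strand) and chr12:17266491-17266509 (plus strand), between 65 bases (Hspa5) and 162 bases (Calr) before the RefSeq start. Hsp90b1 held a second match 212 bases before its start.

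The shorter element II, searched on both strands as ATTGG and CCACG with 1 base of any kind between them, stood in Herpud1 and Dnajb11 (11.8% of ER-arm windows, against 0.0444% of all windows). The unfolded protein response element TGACGTGG was found in 0 of the 34 windows, against 0.714% of all. The C/EBP-ATF composite element, searched as TGATGNAA on both strands, stood in 4 of 14 Atf4-arm windows (28.6%: Asns, Chac1, Trib3 and Vldlr) and in 4.51% of all windows. In the ER arm it was found in Herpud1 alone (5.88%), so that Herpud1 held an element of either kind. The sites below have the fixed letters in capitals and their neighbours in lower case.
Herpud1 (ER stress response element II): ATTGGgCCACG
Herpud1 (composite element): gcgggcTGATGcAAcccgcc
Chac1 (composite element): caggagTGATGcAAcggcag
Asns (composite element): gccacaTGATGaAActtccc
Trib3 (composite element): cccggcTGATGtAAacctga
The fixed letters lie at chr8:94386377-94386387 (plus strand), chr8:94386317-94386324 (minus), chr2:119351049-119351056 (minus), chr6:7693225-7693232 (minus) and chr2:152344039-152344046 (plus). RefSeq and GENCODE vM21 place some starts differently: the sites of Hspa5 and Asns lie before the RefSeq start but inside the GENCODE gene, and that of Trib3 lies after the RefSeq start but before the GENCODE gene. The motifs of the ER arm share the box CCACG, which stood in 94.1% of ER-arm windows, 71.4% of Atf4-arm windows and 35.5% of all. A match describes letters only, and a window without one leaves the rest of the gene unsearched.

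Library totals ran between 15139281 and 25342991 counts. Levels below are CPM, which are counts scaled to the library size after TMM normalization, listed in the order of replicates 1, 2 and 3. Mir27a of the deleted cluster had 0 counts in all 6 Mirc11-/- libraries and summed to 5 counts in stimulated and 8 in unstimulated wild-type libraries, and Mir23a had 0 in all 12, so this check of the labels rests on few reads. The 10 NK cell markers summed to 3530 to 5690 CPM in stimulated and 10700 to 11700 CPM in unstimulated Mirc11-/- cells. In wild-type cells they summed to 6630 to 7950 CPM with stimulation and 9780 to 11900 CPM without. Gzmb made up most of each sum, with means of 3160, 7450, 4460 and 6400 CPM in these groups in this order. With stimulation 7 of the 10 were called lower and 1 higher (Tbx21, 0.33 on the log2 scale) in Mirc11-/- cells. In wild-type cells 7 were called lower and 2 higher (Tbx21, 0.75, and Klrk1, 0.32). Of all genes tested, 22.1% were called lower and 23.5% higher in Mirc11-/- cells, and 15.7% and 16.1% in wild-type cells. Markers of B cells (6 genes, 3 tested) summed to 102 to 113 CPM in stimulated and 64.2 to 73.2 CPM in unstimulated Mirc11-/- cells, and to 105 to 128 CPM in stimulated and 57.1 to 71.9 CPM in unstimulated wild-type cells. Those of T cells (6 genes) summed to 59.9 to 78.1 CPM in stimulated and 54.1 to 95 CPM in unstimulated Mirc11-/- cells, and to 35.3 to 55.9 CPM in stimulated and 32.5 to 53.6 CPM in unstimulated wild-type cells. Dendritic cell markers (5 genes, 3 tested) summed to 22.2 to 33 CPM in stimulated and 10.5 to 14.1 CPM in unstimulated Mirc11-/- cells, and to 24.8 to 28.4 CPM in stimulated and 10.1 to 14.8 CPM in unstimulated wild-type cells. Macrophage markers (6 genes, 2 tested) summed to 5.62 to 8.37 CPM in stimulated and 2.33 to 4.75 CPM in unstimulated Mirc11-/- cells, and to 8.03 to 9.97 CPM in stimulated and 5.37 to 6.7 CPM in unstimulated wild-type cells. The sums of B cell, dendritic cell and macrophage markers were thus higher in every stimulated library than in the unstimulated ones of the same genotype. The B cell markers Pax5 and Ighm, the dendritic cell marker Zbtb46 and the T cell marker Cd4 were called higher with stimulation in both genotypes. Ms4a1 (1.09), Xcr1 (0.79) and the macrophage marker Cd14 (0.96) were called higher in Mirc11-/- cells alone (adjusted p = 0.0228, 0.0183 and 0.00838, edgeR). Ighm made up most of each B cell sum and Zbtb46 most of each dendritic cell sum. Cd4 and Pax5 reached at most 1.48 and 1.28 CPM. Between the stimulated genotypes Cd8b1 (1.83) and Pax5 (1.81) were called higher in Mirc11-/- cells. The NK cell markers Prf1 (-1.11), Nkg7 (-0.58) and Eomes (-0.55) were called lower in that comparison, and the other 7 NK cell markers were not called. Over all genes 5.13% were called lower and 3.89% higher. Between the unstimulated genotypes the NK cell marker Itga2 (0.66) was called higher in Mirc11-/- cells, as were 0.309% of all genes. The neutrophil markers (5 genes, 1 tested) summed to at most 2.28 CPM. No marker was at 0 in all 12 libraries, and the part of other cells in the results was not tested. In such bulk samples fewer cells of a type and less RNA per cell cannot be told apart.

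Some libraries stood apart. The summed level of 548 vomeronasal receptor genes, which encode chemosensory receptors of the nose, was 85.44, 49.11 and 59.14 CPM in stimulated and 14.57, 16.97 and 15.87 CPM in unstimulated Mirc11-/- cells. It was 41.54, 26.1 and 24.84 CPM in stimulated and 14.2, 13.57 and 17.36 CPM in unstimulated wild-type cells. The share of counts from mitochondrial genes was 16.45% to 18.84% in stimulated and 13.36% to 16.12% in unstimulated Mirc11-/- cells, and 15.17% to 16.38% in stimulated and 12.33% to 13.17% in unstimulated wild-type cells. Replicate 1 of each stimulated group had the highest vomeronasal level of its group, and it was the lowest library of its group for 34 of 39 members in Mirc11-/- cells and for 33 of 39 in wild-type cells, against 42.2% and 35.7% of all tested genes. The counts of the ER arm, the Atf4 arm and the genotype comparisons are also given without these 2 libraries.

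By GENCODE vM21 (GRCm38) all members are protein-coding genes, among them Hspa5 at chr2:34771970-34777547 (plus strand), Herpud1 at chr8:94386438-94395377 (plus strand), Ern1 at chr11:106394650-106487852 (minus strand), Atf4 at chr15:80255184-80257541 (plus strand), Chac1 at chr2:119351229-119354381 (plus strand) and Cth at chr3:157894248-157925077 (minus strand). Per kilobase of exon, the most abundant members in unstimulated wild-type cells were the lectin chaperone gene Calr at 260 CPM, the Hsp70-family chaperone gene Hspa5 at 255, the Hsp90-family chaperone gene Hsp90b1 at 189 and Atf4 at 168 CPM per kilobase. Herpud1 stood at 28.4, Chac1 at 16.7, Ern1 at 7.57 and Cth at 6.88 CPM per kilobase, and Vldlr was the lowest member at 0.214. In stimulated Mirc11-/- cells Calr stood at 138, Hspa5 at 114, Hsp90b1 at 83.6 and Atf4 at 87.4 CPM per kilobase.

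**Figure D1:**
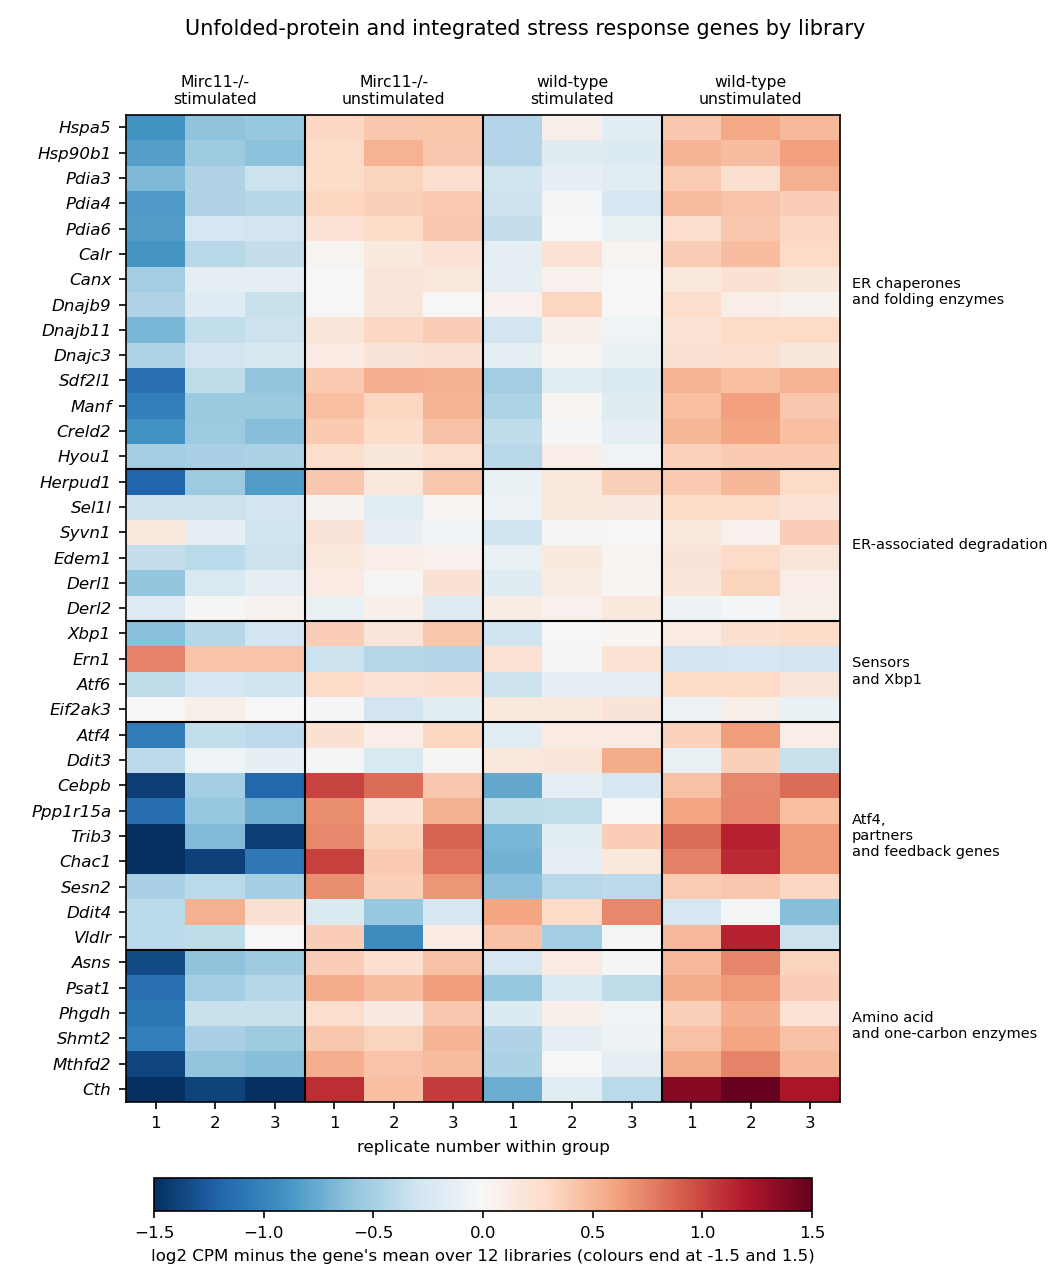
Level of each of the 39 members (rows, by role) in each of the 12 libraries (columns, by group and replicate), as log2 CPM minus the mean of that gene over all libraries. Most rows are blue in stimulated Mirc11-/- cells, deepest in replicate 1, pale in stimulated wild-type cells and red in the unstimulated libraries of either genotype, while Ern1 and, less evenly, Ddit4 run the other way.

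In Mirc11-/- cells, stimulation lowered 32 of 39 members and raised 1, Ern1, at an adjusted p under 0.05 (edgeR's quasi-likelihood test, Benjamini-Hochberg over 17457 genes). Of all genes tested, 22.1% were called lower and 23.5% higher in that comparison, 45.6% in all. In wild-type cells, stimulation lowered 22 members and raised 2, Ern1 and Ddit4, where 15.7% of all genes were called lower and 16.1% higher, 31.8% in all. The median change of the members was -0.77 on the log2 scale in Mirc11-/- cells, beside 0.03 for all genes, and -0.47 in wild-type cells, beside 0.02. The 22 members that fell in wild-type cells all fell in Mirc11-/- cells too, 10 more were called lower in Mirc11-/- cells alone, and 5 were called in neither (Derl2, Syvn1, Eif2ak3, Ddit3 and Vldlr). Those 10 are not shown by this to differ between the genotypes, a question tested further down. All 3 stimulated libraries lay below all 3 unstimulated ones for 32 members in Mirc11-/- cells (26.2% of all genes) and for 29 in wild-type cells (24.1% of all genes).

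These falls moved with the vomeronasal reads, which were higher in all 6 stimulated libraries than in any unstimulated one. With the vomeronasal level as a covariate, 0 of 20 ER-arm and 0 of 15 Atf4-arm members were called lower in Mirc11-/- cells (18 and 12 without it), and 1 and 1 in wild-type cells (11 and 10 without it). Over all genes tested, the fit with this covariate called 560 either way in Mirc11-/- cells, against 7958 without it. The vomeronasal level and stimulation cannot be told apart in these libraries. Without replicate 1 of both stimulated groups, 17 ER-arm and 12 Atf4-arm members were still called lower in Mirc11-/- cells, and 12 and 10 in wild-type cells.

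**Figure D2:**
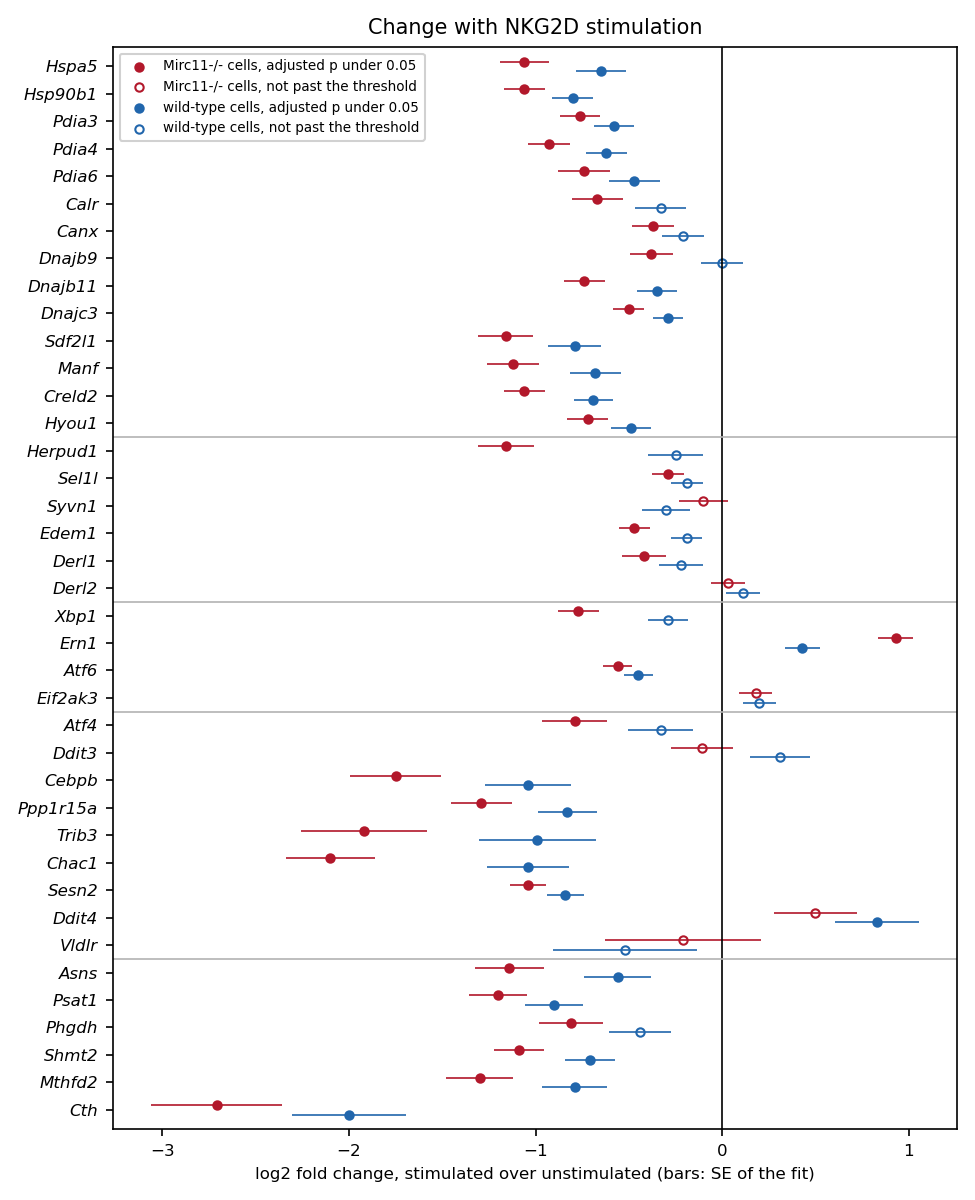
Log2 fold change with stimulation for each member, Mirc11-/- cells in red and wild-type cells in blue. Bars are the SE of the fit, and filled points passed an adjusted p under 0.05. All points of the chaperones and of the amino acid and one-carbon enzymes lie at or below 0. Ern1 and Ddit4 lie above it in both genotypes, as do the uncalled Eif2ak3 and Derl2.

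The ER chaperones and folding enzymes fell together. All 14 fell with stimulation in Mirc11-/- cells, between -0.37 (Canx) and -1.16 (Sdf2l1) on the log2 scale, where 22.1% of all genes fell. In wild-type cells 11 of 14 fell, where 15.7% of all genes fell. Calr (-0.33, adjusted p = 0.0774), Canx (-0.21, adjusted p = 0.177) and Dnajb9 (0, adjusted p = 0.984) did not pass the test there. Hspa5, also called BiP, is the main Hsp70 chaperone of the ER lumen and holds the sensors inactive while it is free to bind them. Its level was 414, 507 and 520 CPM in stimulated Mirc11-/- cells, against 959, 1020 and 1030 CPM in unstimulated Mirc11-/- cells. In wild-type cells it was 568, 815 and 689 CPM with stimulation, against 1020, 1150 and 1080 CPM without. The stimulated libraries lay below all unstimulated ones in both genotypes, and stimulated Mirc11-/- cells below stimulated wild-type cells. The fall was -1.06 ± 0.133 (log2, SE of the fit) in Mirc11-/- cells (adjusted p = 3.58e-05) and -0.65 ± 0.132 in wild-type cells (adjusted p = 0.00221, edgeR).

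Hsp90b1, the ER form of Hsp90, which folds integrins and Toll-like receptors, had 298, 367 and 347 CPM in stimulated and 645, 759 and 703 CPM in unstimulated Mirc11-/- cells. Stimulated wild-type cells had 392, 467 and 458 CPM of it, against 754, 730 and 808 CPM in unstimulated wild-type cells. The groups did not overlap, with falls of -1.06 ± 0.11 in Mirc11-/- cells and -0.8 ± 0.11 in wild-type cells (adjusted p = 7.62e-06 and 0.000119, edgeR). It overlaps the exons of 3 annotated genes, the largest single overlap covering 10.3% of its exon bases. Of its 31-base words 12.3% occur in other transcripts, so some reads could be assigned elsewhere. Pdia4, a disulfide isomerase, showed the same order, with 99.3, 131 and 133 CPM in stimulated and 224, 229 and 236 CPM in unstimulated Mirc11-/- cells. Its level was 144, 176 and 150 CPM in stimulated and 247, 242 and 232 CPM in unstimulated wild-type cells, and its log2 changes were -0.93 ± 0.112 and -0.62 ± 0.111 in Mirc11-/- and wild-type cells (adjusted p = 2.61e-05 and 0.00087, edgeR).

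The small ER proteins Creld2, Manf and Sdf2l1 are secreted or retained factors that are classical targets of the unfolded protein response, and they fell about as far as Hspa5. Creld2 had 19.4, 25 and 23.3 CPM in stimulated and 47.7, 44.1 and 49.3 CPM in unstimulated Mirc11-/- cells. In wild-type cells it had 28, 35.5 and 32.9 CPM with stimulation and 51.2, 54.9 and 49.6 CPM without. Every stimulated library lay below every unstimulated one, and the falls were -1.06 ± 0.108 in Mirc11-/- cells and -0.69 ± 0.105 in wild-type cells (adjusted p = 6.25e-06 and 0.000263, edgeR). Manf, a neurotrophic factor that is kept in the ER, had 38.7, 53.4 and 53.4 CPM in stimulated and 107, 97.8 and 112 CPM in unstimulated Mirc11-/- cells. Stimulated wild-type cells had 56.8, 80.3 and 69.2 CPM of Manf, against 107, 120 and 104 CPM in unstimulated wild-type cells, and it fell by 1.12 and 0.68 on the log2 scale in Mirc11-/- and wild-type cells. Sdf2l1, a partner of Hspa5, fell by 1.16 in Mirc11-/- and by 0.79 in wild-type cells.

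The lectin chaperone Calr binds newly made glycoproteins, as does Canx. It had 312, 433 and 450 CPM in stimulated and 593, 640 and 670 CPM in unstimulated Mirc11-/- cells, a fall of -0.67 ± 0.136 (adjusted p = 0.00136, edgeR). In wild-type cells its 522, 671 and 594 CPM with stimulation lay below the 744, 796 and 710 CPM without, but the change of -0.33 ± 0.136 did not pass the test (adjusted p = 0.0774). It did pass in DESeq2 (0.0468), with no filter (0.0343), with no composition factor (0.0192), without replicate 1 of both stimulated groups (0.0424) and without single libraries of stimulated Mirc11-/- (replicate 1, 0.00778) or stimulated wild-type cells (replicate 2, 0.05). The other isomerases fell in both genotypes: Pdia3, which acts with Calr and Canx, by 0.76 in Mirc11-/- and 0.58 in wild-type cells, and Pdia6 by 0.74 and 0.47. The J-domain co-chaperones of Hspa5 fell by 0.74 (Dnajb11), 0.5 (Dnajc3) and 0.38 (Dnajb9) in Mirc11-/- cells. In wild-type cells Dnajb11 fell by 0.35 and Dnajc3 by 0.29, while Dnajb9 was not called, with 17.9, 21.4 and 17.2 CPM in stimulated and 20.6, 18.4 and 17.7 CPM in unstimulated cells. Hyou1, a large Hsp70-like nucleotide exchange factor, fell by 0.72 in Mirc11-/- and by 0.49 in wild-type cells. Leaving out 1 library ended the wild-type calls of Pdia6 (adjusted p = 0.0932 without stimulated wild-type replicate 1 and 0.0599 without unstimulated wild-type replicate 2), of Dnajb11 (replicates 1 and 3 of the stimulated or 2 and 3 of the unstimulated wild-type cells, 0.0559 to 0.121) and of Dnajc3 (replicates 1 and 3 of the stimulated or 1 of the unstimulated wild-type cells, 0.0552 to 0.0736). In Mirc11-/- cells it ended that of Dnajb9, at 0.0569 without unstimulated Mirc11-/- replicate 2. Without replicate 1 of both stimulated groups Dnajb9 was not called there either (-0.31, adjusted p = 0.0532), which leaves 13 of the 14 in Mirc11-/- cells.

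The 6 genes of ER-associated degradation, which export misfolded proteins to the proteasome, had a median change of -0.36 in Mirc11-/- cells and -0.2 in wild-type cells, beside -0.75 and -0.53 for the chaperones. In Mirc11-/- cells 4 of 6 fell (Herpud1, Edem1, Derl1 and Sel1l), where 22.1% of all genes were called lower. In wild-type cells 0 of 6 passed the test, where 15.7% of all genes were called lower. An unadjusted p under 0.05 was reached there by 3 of 6, and by 7348 of all 17457 genes tested. DESeq2 called 1, Edem1 (adjusted p = 0.0385), and the fit with no composition factor called 3, Edem1 (0.0255), Sel1l (0.0307) and Derl1 (0.0413). Herpud1, a membrane protein that assembles the degradation complex, had 22.1, 34.5 and 28 CPM in stimulated and 66.2, 55.9 and 66.9 CPM in unstimulated Mirc11-/- cells. In wild-type cells it had 46.7, 56.2 and 64.1 CPM with stimulation, against 66.1, 71 and 61.7 CPM without. The Mirc11-/- groups did not overlap and the wild-type groups did. Its change was -1.16 ± 0.15 in Mirc11-/- cells (adjusted p = 4.86e-05) and -0.25 ± 0.146 in wild-type cells (adjusted p = 0.21, edgeR), with a 95% interval of -0.59 to 0.08 in wild-type cells.

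Edem1, a lectin that takes misfolded glycoproteins out of the folding cycle, had 181, 175 and 185 CPM in stimulated and 258, 247 and 241 CPM in unstimulated Mirc11-/- cells, a fall of -0.47 ± 0.0828 (adjusted p = 0.000527, edgeR). Its wild-type libraries had 216, 255 and 238 CPM with stimulation and 265, 282 and 262 CPM without. Derl1, a channel component, had 71.5, 91.2 and 97.4 CPM in stimulated and 116, 108 and 125 CPM in unstimulated Mirc11-/- cells, and 94.4, 115 and 109 CPM in stimulated and 121, 135 and 114 CPM in unstimulated wild-type cells. It fell by 0.42 in Mirc11-/- cells (adjusted p = 0.00962, edgeR), and its wild-type groups overlapped. Sel1l, the adaptor of the ubiquitin ligase, had 85.1, 84.3 and 87.1 CPM in stimulated and 110, 94.2 and 109 CPM in unstimulated Mirc11-/- cells, and 99.8, 118 and 116 CPM in stimulated and 129, 129 and 122 CPM in unstimulated wild-type cells. Its fall of -0.29 ± 0.0866 in Mirc11-/- cells (adjusted p = 0.0145, edgeR) lost the call without unstimulated Mirc11-/- replicate 1 (0.0517) or 3 (0.053). Syvn1, the ubiquitin ligase itself, and Derl2, a relative of Derl1, were called in neither genotype, with changes of -0.1 and 0.03 in Mirc11-/- cells and -0.3 and 0.11 in wild-type cells. The wild-type change of Syvn1 passed without stimulated Mirc11-/- replicate 1 (adjusted p = 0.0353).

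Among the sensor genes, Ern1 rose while Atf6 fell. Ern1 had 126, 101 and 101 CPM in stimulated and 60.3, 56.2 and 55.4 CPM in unstimulated Mirc11-/- cells. Stimulated wild-type cells had 87.7, 76.1 and 87 CPM, against 61.7, 62.5 and 61.5 CPM in unstimulated wild-type cells. All stimulated libraries lay above all unstimulated ones, with a rise of 0.93 ± 0.0952 in Mirc11-/- cells, or 1.91-fold, and of 0.43 ± 0.0944 in wild-type cells, or 1.35-fold (adjusted p = 6.32e-06 and 0.0034, edgeR). Atf6 had 57.7, 63.3 and 61.3 CPM in stimulated and 92.2, 87.4 and 89.2 CPM in unstimulated Mirc11-/- cells, and 60.3, 69.2 and 67.9 CPM in stimulated and 91.5, 92.9 and 85.7 CPM in unstimulated wild-type cells. Every stimulated library lay below every unstimulated one. Its fall was -0.56 ± 0.0776 in Mirc11-/- and -0.45 ± 0.0771 in wild-type cells (adjusted p = 7.65e-05 and 0.000606, edgeR), and the difference between them was -0.11 with a 95% interval of -0.36 to 0.14. With the vomeronasal level as a covariate neither gene was called: Ern1 stood at 0.49 in Mirc11-/- and 0.21 in wild-type cells (adjusted p = 0.255 and 0.294), and Atf6 at -0.11 and -0.23 (adjusted p = 0.78 and 0.142).

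Xbp1, whose spliced mRNA encodes the transcription factor of the IRE1 branch, had 65.6, 75 and 82.8 CPM in stimulated and 131, 115 and 135 CPM in unstimulated Mirc11-/- cells. In wild-type cells it had 82.3, 102 and 103 CPM with stimulation and 110, 120 and 122 CPM without. It fell by 0.77 in Mirc11-/- cells (SE 0.11, adjusted p = 9.63e-05), and the wild-type change of -0.29 ± 0.109 did not pass the test (adjusted p = 0.0534, edgeR). DESeq2 did call the wild-type change (adjusted p = 0.0416). The counts are of the whole gene and hold no measure of splicing. Eif2ak3 was called in neither genotype: it had 267, 280 and 268 CPM in stimulated and 262, 221 and 237 CPM in unstimulated Mirc11-/- cells, and 297, 295 and 304 CPM in stimulated and 251, 283 and 248 CPM in unstimulated wild-type cells. Its changes were 0.18 (95% interval -0.02 to 0.38) in Mirc11-/- cells and 0.2 (-0.01 to 0.4) in wild-type cells, and 8.05% of its exon bases overlap a gene on the opposite strand.

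In the Atf4 arm, 12 of 15 members fell in Mirc11-/- cells and none rose, while in wild-type cells 10 fell and 1 rose. Over all genes tested 22.1% fell and 23.5% rose in Mirc11-/- cells, and 15.7% fell and 16.1% rose in wild-type cells. Atf4 itself had 148, 237 and 233 CPM in stimulated and 357, 327 and 383 CPM in unstimulated Mirc11-/- cells. Stimulated wild-type cells had 273, 334 and 333 CPM, against 388, 470 and 327 CPM in unstimulated wild-type cells, so that the wild-type groups overlapped. Atf4 mRNA fell by 0.79 in Mirc11-/- cells (SE 0.173, adjusted p = 0.00243), and the wild-type change was -0.33 ± 0.172 (adjusted p = 0.158, edgeR). The factor is set mainly by translation, which these counts do not measure. Without stimulated Mirc11-/- replicate 1, which enters the shared estimate of the spread, the wild-type change had an adjusted p of 0.0377.

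Of the 8 other genes of this role, Chac1, Trib3, Ppp1r15a, Sesn2 and Cebpb fell in both genotypes. Chac1, which degrades glutathione, had 5.04, 5.77 and 7.19 CPM in stimulated and 30.8, 19.9 and 26.7 CPM in unstimulated Mirc11-/- cells. In wild-type cells it had 9.31, 13.7 and 17 CPM with stimulation, against 25.7, 33 and 23.7 CPM without. The groups did not overlap, and the falls were -2.1 ± 0.237 in Mirc11-/- cells, or 4.3-fold, and -1.04 ± 0.219 in wild-type cells, or 2.05-fold (adjusted p = 2.59e-05 and 0.00344, edgeR). Trib3, a pseudokinase that restrains ATF4, fell by 1.92 in Mirc11-/- cells and by 0.99 in wild-type cells. Its wild-type libraries spread widely, at 10.2, 14.8 and 21.2 CPM with stimulation and 29.5, 36.6 and 25.6 CPM without, and leaving out any of 6 single libraries (the 6 gave adjusted p between 0.0528 and 0.108) ended the wild-type call; 5 of these were wild-type libraries and 1 was stimulated Mirc11-/- replicate 3. Without replicate 1 of both stimulated groups it was not called in wild-type cells either (-0.77, adjusted p = 0.0597).

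Ppp1r15a, the phosphatase subunit that reverses eIF2 phosphorylation, had 19.2, 28.4 and 25.1 CPM in stimulated and 68.4, 48.8 and 60.8 CPM in unstimulated Mirc11-/- cells. It had 32.3, 32.6 and 42.2 CPM in stimulated and 63.3, 70.2 and 57.4 CPM in unstimulated wild-type cells. Its falls were -1.29 ± 0.161 in Mirc11-/- and -0.83 ± 0.157 in wild-type cells (adjusted p = 4.18e-05 and 0.00142, edgeR). Sesn2, an inhibitor of mTORC1 that senses leucine, stood at 38.5, 40.6 and 38 CPM in stimulated and 87.2, 68.9 and 85 CPM in unstimulated Mirc11-/- cells. Wild-type cells were at 34.8, 40.3 and 41.1 CPM with stimulation and 70.2, 71 and 66.8 CPM without. Stimulated cells of the 2 genotypes thus overlapped, and the falls were -1.04 ± 0.0976 and -0.84 ± 0.0969 in Mirc11-/- and wild-type cells (adjusted p = 3.03e-06 and 2.93e-05, edgeR).

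Cebpb, a C/EBP-family factor that can pair with ATF4, was low throughout, with 2.14, 4.02 and 2.53 CPM in stimulated and 11.5, 10.2 and 7.55 CPM in unstimulated Mirc11-/- cells. It had 3.35, 5.15 and 4.78 CPM in stimulated and 7.73, 9.4 and 10.2 CPM in unstimulated wild-type cells, with falls of -1.75 ± 0.244 and -1.04 ± 0.229 in Mirc11-/- and wild-type cells (adjusted p = 8.05e-05 and 0.00366, edgeR). Of its exon bases 20.7% overlap Tmem189 on the opposite strand, and reads of the 2 genes may be mixed. Ddit3, which encodes CHOP, the pro-apoptotic factor downstream of ATF4, was called in neither genotype. Its level was 17, 21.2 and 20.4 CPM in stimulated and 21.9, 19 and 22.5 CPM in unstimulated Mirc11-/- cells, and 24.9, 25.2 and 32.6 CPM in stimulated and 20.6, 28.6 and 17.7 CPM in unstimulated wild-type cells. The groups overlapped in both genotypes, and the changes were -0.11 (95% interval -0.5 to 0.27) in Mirc11-/- cells and 0.31 (-0.06 to 0.69) in wild-type cells. Without unstimulated wild-type replicate 2, the wild-type change was 0.52 and passed the test (adjusted p = 0.019, edgeR). Ddit3 overlaps the exons of 3 annotated entries, a second Ddit3 entry, Gm4189 and Mars, and the largest single overlap covers 6.13% of its exon bases.

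Ddit4, an inhibitor of mTORC1 that also answers to hypoxia and glucocorticoids, was the member of this arm that rose. It had 43.1, 82.7 and 66.7 CPM in stimulated and 49.1, 38.5 and 48.1 CPM in unstimulated Mirc11-/- cells, and 85.7, 69.5 and 94.3 CPM in stimulated and 48.1, 55.8 and 36.5 CPM in unstimulated wild-type cells. The rise of 0.83 ± 0.223 in wild-type cells passed the test (adjusted p = 0.015), and the change of 0.5 ± 0.224 in Mirc11-/- cells did not (adjusted p = 0.0877, edgeR). The wild-type call was lost without stimulated wild-type replicate 3 (0.0548) or unstimulated wild-type replicate 3 (0.0642), and without stimulated Mirc11-/- replicate 1 the Mirc11-/- change was 0.73 (0.0128). Vldlr, a lipoprotein receptor, ranged between 0.757 and 3.24 CPM, and at this depth no change was detectable (adjusted p = 0.711 in Mirc11-/- and 0.327 in wild-type cells, edgeR).

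All 6 amino acid and one-carbon enzymes fell in Mirc11-/- cells, and all but Phgdh in wild-type cells, where 22.1% and 15.7% of all genes fell. Cth, which makes cysteine from cystathionine, fell the furthest of the 39 members. It had 0.811, 2.45 and 2.19 CPM in stimulated and 13.8, 8.7 and 13.2 CPM in unstimulated Mirc11-/- cells. Wild-type cells had 3.82, 5.66 and 4.83 CPM with stimulation, against 16.4, 26.3 and 14.9 CPM without. The groups were far apart in both genotypes, with falls of -2.71 ± 0.35 in Mirc11-/- cells, or 6.53-fold, and -2 ± 0.305 in wild-type cells, or 4.01-fold (adjusted p = 8.23e-05 and 0.000433, edgeR); the lowest library rested on 14 counts.

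Psat1 and Phgdh are enzymes of serine synthesis. Psat1 had 84.9, 130 and 137 CPM in stimulated and 271, 255 and 285 CPM in unstimulated Mirc11-/- cells, and 125, 161 and 142 CPM in stimulated and 272, 288 and 239 CPM in unstimulated wild-type cells. Its falls were -1.2 ± 0.155 and -0.9 ± 0.154 in Mirc11-/- and wild-type cells (adjusted p = 4.5e-05 and 0.000633, edgeR). Phgdh fell by 0.81 in Mirc11-/- cells, and its wild-type change of -0.44 missed the threshold (adjusted p = 0.0625); 56.3% of its 31-base words occur in other transcripts, so its level is uncertain. DESeq2, the fit with no composition factor, the fit without stimulated Mirc11-/- replicate 1 and the fit without replicate 1 of both stimulated groups called the wild-type change of Phgdh (adjusted p = 0.037, 0.0155, 0.00198 and 0.0117).

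The mitochondrial folate enzymes Shmt2 and Mthfd2, which feed one-carbon units to nucleotide synthesis, fell together. Shmt2 had 76.7, 112 and 108 CPM in stimulated and 208, 197 and 224 CPM in unstimulated Mirc11-/- cells, and 115, 142 and 149 CPM in stimulated and 213, 236 and 213 CPM in unstimulated wild-type cells. Mthfd2 had 38.6, 66.6 and 64.6 CPM in stimulated and 146, 135 and 139 CPM in unstimulated Mirc11-/- cells, and 72.2, 99.6 and 90.8 CPM in stimulated and 147, 168 and 140 CPM in unstimulated wild-type cells. No stimulated library reached an unstimulated one. Shmt2 fell by 1.09 in Mirc11-/- and by 0.71 in wild-type cells, and Mthfd2 by 1.3 and 0.79 (adjusted p = 3.3e-05, 0.0013, 0.000104 and 0.00451 in this order, edgeR). Asns, which makes asparagine and carries the composite element shown above, fell by 1.14 in Mirc11-/- and by 0.56 in wild-type cells. Its wild-type call (adjusted p = 0.0308) was lost without replicate 1 or 3 of the stimulated wild-type cells (0.115 and 0.0668), or without replicate 1 or 2 of the unstimulated ones (0.0624 and 0.105).

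**Figure D3:**
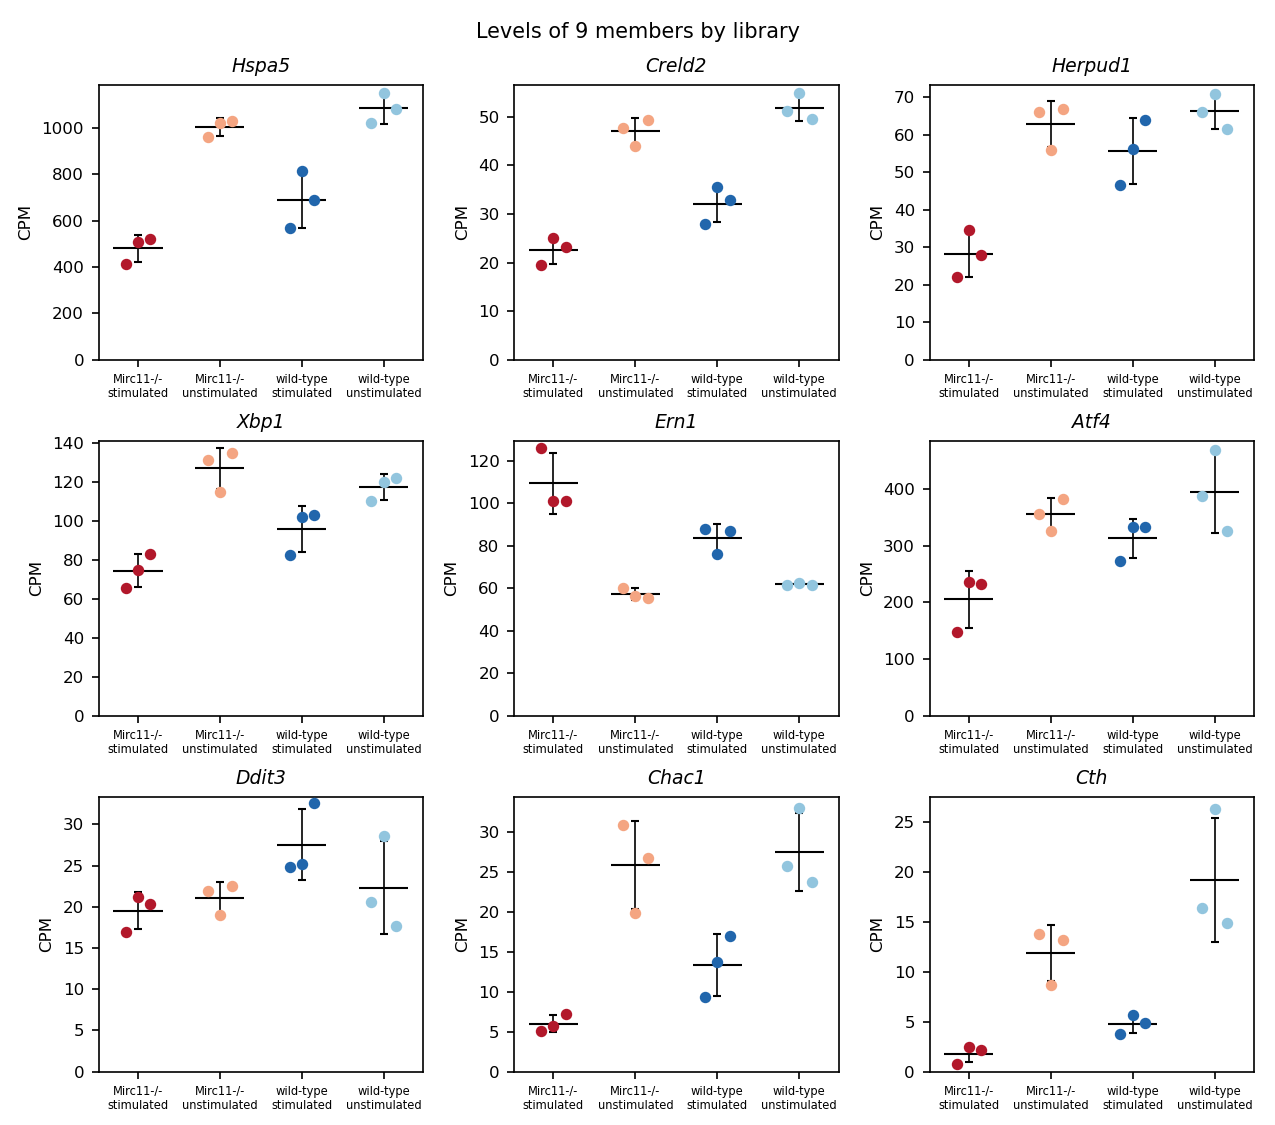
Level in CPM of 9 members in each library (points, in replicate order), with the group mean (line) and SD (bar), n = 3 per group. Stimulated Mirc11-/- cells are lowest for Hspa5, Creld2, Herpud1, Xbp1, Atf4, Chac1 and Cth and highest for Ern1, and the stimulated and unstimulated groups overlap for Ddit3 in both genotypes.

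The 2 arms were set side by side by the median of their members. With stimulation the Atf4 arm had a median change of -1.14 in Mirc11-/- cells and the ER arm -0.73, and in wild-type cells the medians were -0.79 and -0.34. The ER arm pools 14 chaperones, with medians of -0.75 in Mirc11-/- and -0.53 in wild-type cells, and 6 degradation genes, with -0.36 and -0.2. The members spread from -2.71 (Cth) to 0.5 (Ddit4) in the Atf4 arm and from -1.16 (Sdf2l1 and Herpud1) to 0.03 (Derl2) in the ER arm of Mirc11-/- cells. Within a library, the median of log2 CPM minus each gene's mean was -1.12, -0.5 and -0.53 for the Atf4 arm in stimulated and 0.54, 0.33 and 0.47 in unstimulated Mirc11-/- cells. In wild-type cells it was -0.44, -0.15 and -0.03 with stimulation and 0.49, 0.72 and 0.37 without. For the ER arm it was -0.68, -0.39 and -0.33 in stimulated and 0.2, 0.19 and 0.26 in unstimulated Mirc11-/- cells, and -0.29, 0.06 and -0.06 in stimulated and 0.32, 0.37 and 0.31 in unstimulated wild-type cells. All stimulated libraries thus lay below all unstimulated ones for both arms, and the stimulated Mirc11-/- libraries below the stimulated wild-type ones. The Atf4-arm median minus the ER-arm median was -0.44, -0.11 and -0.2 in stimulated and 0.34, 0.14 and 0.21 in unstimulated Mirc11-/- cells, and -0.15, -0.21 and 0.03 in stimulated and 0.17, 0.35 and 0.06 in unstimulated wild-type cells. The gap between the arms was therefore lower in every stimulated library than in any unstimulated one, and the stimulated groups of the 2 genotypes overlapped in it. The margin was small, with 0.03 in stimulated wild-type replicate 3 against 0.06 in unstimulated wild-type replicate 3. These medians are descriptions over the members and were not tested.

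**Figure D4:**
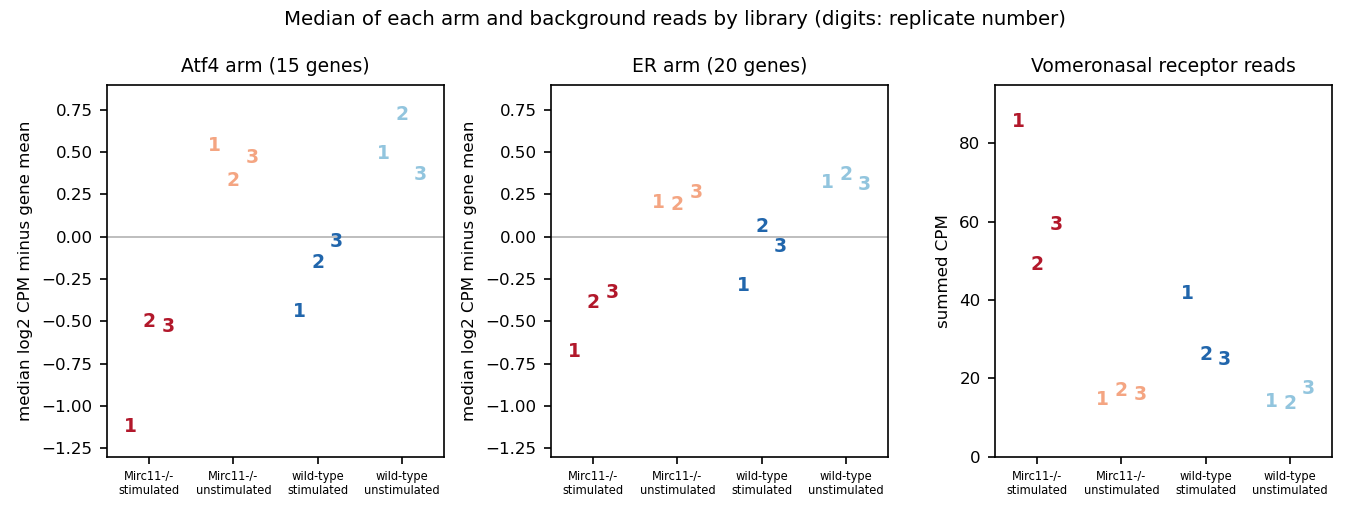
Median over the 15 Atf4-arm genes (left) and the 20 ER-arm genes (middle) of log2 CPM minus the gene mean, and summed vomeronasal receptor CPM (right), by group, with digits for replicate numbers. Both arms are lowest and the vomeronasal level highest in stimulated Mirc11-/- replicate 1 (-1.12, -0.68 and 85.44 CPM).

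Before stimulation 0 of the 39 members were called between unstimulated Mirc11-/- and wild-type cells by edgeR or by DESeq2, where 1.11% of all genes were called (0.796% lower and 0.309% higher), a share that would leave fewer than 1 member. Of the members 3 had an unadjusted p under 0.05, as did 1607 of all 17457 genes tested. The 3 members were Sel1l (-0.28, adjusted p = 0.203), Cth (-0.68, adjusted p = 0.479) and Sesn2 (0.21, adjusted p = 0.516). Without replicate 1 of both stimulated groups Sel1l was called at -0.29 (adjusted p = 0.0463). The median difference was -0.09, beside 0.01 for all genes, and 34 of 39 estimates were below 0, beside 8367 of 17457 for all genes. All 3 Mirc11-/- libraries lay below all 3 wild-type ones for 7 members, against 8.91% of all genes, and above them for 0 members, against 8.87% of all genes. For Hspa5 the difference was -0.11 with a 95% interval of -0.41 to 0.19, and for Atf4 it was -0.15 with an interval of -0.55 to 0.24.

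After stimulation 16 members were lower in Mirc11-/- than in wild-type cells and 1, Ern1, was higher, where 5.13% of all genes were called lower and 3.89% higher, 9.02% in all. The 16 were 10 of the ER arm (Hspa5, Hsp90b1, Calr, Dnajb9, Manf, Creld2, Hyou1, Herpud1, Sel1l and Edem1) and 6 of the Atf4 arm (Atf4, Ppp1r15a, Chac1, Asns, Mthfd2 and Cth). Herpud1 had the smallest p of the members, with the 22.1 to 34.5 CPM of stimulated Mirc11-/- cells below the 46.7 to 64.1 CPM of stimulated wild-type cells, a difference of -0.98 ± 0.15 (adjusted p = 0.00272, edgeR). Edem1 differed by -0.39 ± 0.0828 (adjusted p = 0.014), Creld2 by -0.51 ± 0.108 (adjusted p = 0.0142), Chac1 by -1.15 ± 0.239 (adjusted p = 0.0153), Sel1l by -0.38 ± 0.0865 (adjusted p = 0.0198) and Calr by -0.58 ± 0.136 (adjusted p = 0.0224, edgeR). Ern1 was higher by 0.39 ± 0.094 (adjusted p = 0.0251, edgeR), with no overlap between the stimulated groups. Cth had the largest difference, -1.39 ± 0.363 (adjusted p = 0.0384, edgeR). For Sesn2 the difference was 0.01 (95% interval -0.21 to 0.24), for Syvn1 0.02 (-0.28 to 0.32) and for Atf6 -0.11 (-0.29 to 0.06). The median over the members was -0.38, beside 0.02 for all genes, and 26 members had all Mirc11-/- libraries below all wild-type ones, against 16.8% of all genes.

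The member calls of this genotype comparison rested on few libraries. Counts over all genes are not set beside the omissions below, so a loss of calls particular to the members cannot be read from them. The count of called members was 1 without stimulated wild-type replicate 2, 1 without stimulated wild-type replicate 3, 6 without stimulated Mirc11-/- replicate 1, and 10 without either unstimulated Mirc11-/- replicate 3 or unstimulated wild-type replicate 1. Herpud1 kept its call in each of these and the other 7 omissions, alone among the 17. Without replicate 1 of both stimulated groups 18 members were called. The vomeronasal level was 49.11 to 85.44 CPM in stimulated Mirc11-/- and 24.84 to 41.54 CPM in stimulated wild-type cells. With it as a covariate 0 members were called. Over all genes tested that fit called 30, against 1575 without the covariate.

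**Figure D5:**
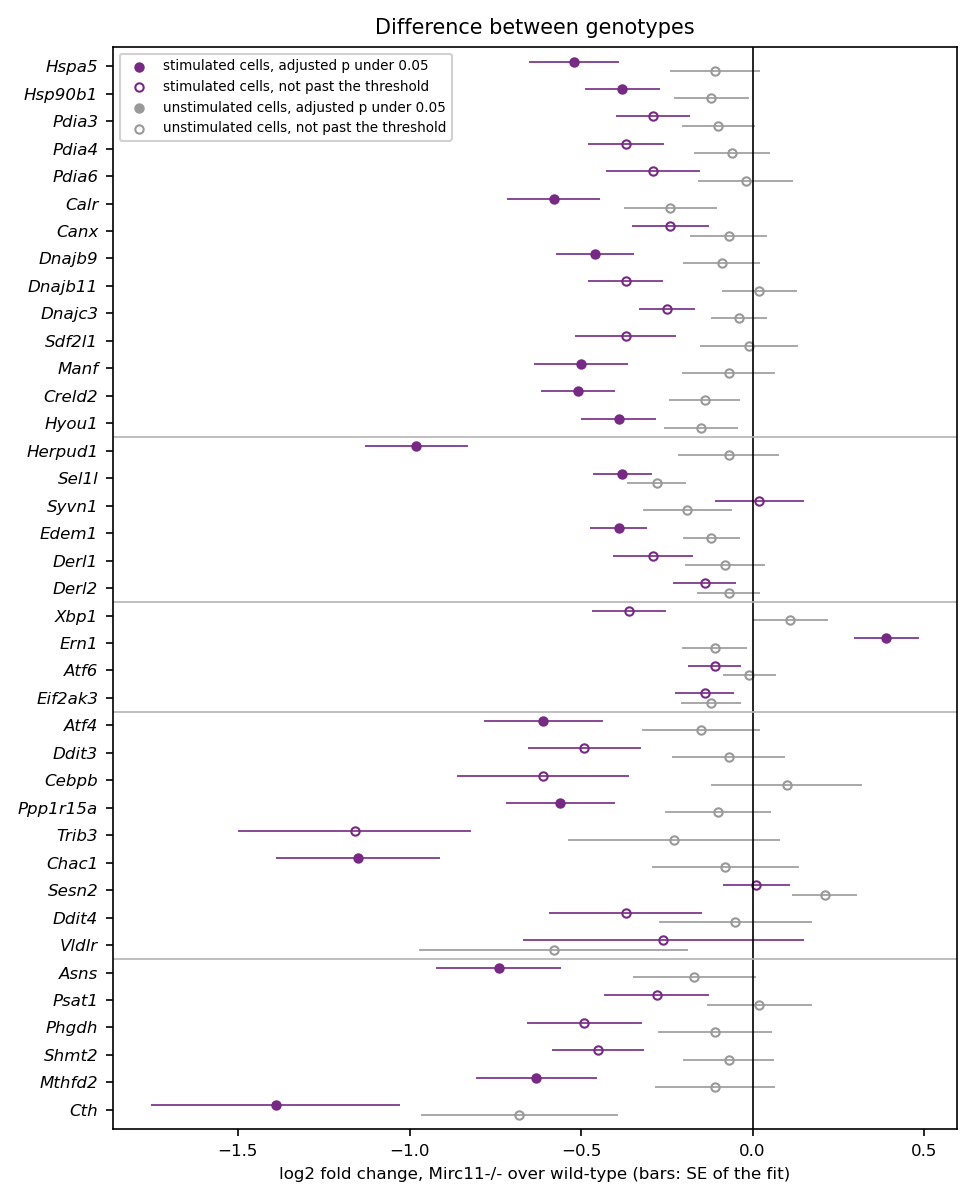
Log2 difference between Mirc11-/- and wild-type cells for each member, stimulated cells in purple and unstimulated cells in grey, with bars for the SE of the fit and filled points for an adjusted p under 0.05. No unstimulated point is filled, and 16 stimulated points are filled below 0 and 1, Ern1, above it.

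Whether stimulation changed a member differently in the 2 genotypes was tested by the interaction, and 0 of 39 members passed, with 11 at an unadjusted p under 0.05. Over all genes 2 passed (0.0115%), with 1858 at an unadjusted p under 0.05 and 63 passing in DESeq2. Of the 39 estimates 36 were below 0, meaning a lower value of the change in Mirc11-/- cells, with a median of -0.34, beside -0.02 for all genes. Herpud1 had the smallest p, with an estimate of -0.91 ± 0.209 (adjusted p = 0.233, edgeR), and it passed in DESeq2 (adjusted p = 0.0212), without the filter on low counts (0.0136) and without replicate 1 of both stimulated groups (0.0302). The estimates for Ern1 (0.5 ± 0.134, adjusted p = 0.366), Chac1 (-1.07 ± 0.32, adjusted p = 0.394) and Xbp1 (-0.48 ± 0.154, adjusted p = 0.423, edgeR) came next. The median was -0.45 in the Atf4 arm and -0.27 in the ER arm. The test of the stimulated groups and the interaction share the stimulated libraries, so they are not independent of each other.

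Other genes of the same pathways were counted from separate lists. Of 37 further ER folding, translocation and degradation genes tested, 14 fell and 1 rose with stimulation in Mirc11-/- cells, and 7 fell and 3 rose in wild-type cells; over all genes tested 22.1% fell and 23.5% rose in Mirc11-/- cells and 15.7% fell and 16.1% rose in wild-type cells. Those with the smallest p in Mirc11-/- cells were Ssr1, a subunit of the translocon-associated complex (-0.72 ± 0.113), the selenoprotein genes Selenos (-0.81 ± 0.145) and Selenok (-0.7 ± 0.129), and Txndc11 (-0.46 ± 0.0848), with adjusted p of 0.00019, 0.000561, 0.000689 and 0.000689 in this order (edgeR). Sec61g, a subunit of the translocation channel, rose in both genotypes, by 1.74 in Mirc11-/- and 2.58 in wild-type cells on the log2 scale, with 19, 34.4 and 32.2 CPM in stimulated and 4.3, 16.8 and 4.74 CPM in unstimulated Mirc11-/- cells, and 36.1, 34.2 and 32.4 CPM in stimulated and 4.55, 4.78 and 7.78 CPM in unstimulated wild-type cells. Edem3, a relative of Edem1 (0.28 ± 0.0699), and Ube2j1, an ubiquitin-conjugating enzyme of the ER (0.33 ± 0.117), rose in wild-type cells (adjusted p = 0.00734 and 0.0445, edgeR).

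Of 31 further integrated stress response genes tested, 25 fell and 0 rose in Mirc11-/- cells (25 at an unadjusted p under 0.05), and 22 fell and 1 rose in wild-type cells. Over all genes tested 22.1% fell and 23.5% rose in Mirc11-/- cells (9204 of 17457 at an unadjusted p under 0.05). In wild-type cells 15.7% fell and 16.1% rose. Slc7a5, the leucine transporter, had 71.8, 80.8 and 75.3 CPM in stimulated and 409, 325 and 374 CPM in unstimulated Mirc11-/- cells, and 111, 167 and 164 CPM in stimulated and 460, 496 and 471 CPM in unstimulated wild-type cells. Its fall of -2.28 ± 0.144 in Mirc11-/- cells (adjusted p = 9.56e-08, edgeR) was 4.86-fold. Slc38a2, a transporter of neutral amino acids, fell by 1 on the log2 scale, Ppp1r15b, the constitutive eIF2 phosphatase subunit, by 0.88, and Shmt1, the cytosolic serine hydroxymethyltransferase, by 1.56. Eif2ak1, which encodes the heme-regulated eIF2 kinase, rose by 0.25 ± 0.0746 in wild-type cells (adjusted p = 0.0189, edgeR). Of 20 cytosolic aminoacyl-tRNA synthetases, which charge tRNAs and include ATF4 targets, 18 fell in Mirc11-/- cells and 16 in wild-type cells, with median changes of -0.87 and -0.51. Yars (-1.25), Gars (-1.16), Iars (-1.11) and Tars (-1.09) had the smallest p in Mirc11-/- cells. Between stimulated Mirc11-/- and stimulated wild-type cells, 5 of the 37 ER genes, 13 of the 31 integrated stress response genes and 12 of the 20 synthetases were lower in Mirc11-/- cells, where 5.13% of all genes were, and none was higher.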

How the data were processed

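Polyadenylated RNA extracted with TRIzol and prepared with an Illumina TruSeq RNA kit, per the labels' protocols, was sequenced in 12 libraries. The tools named in the submitters' processing notes are RSEM 1.3.0, Bowtie2 2.2.8, Trim Galore 0.4.1 and bcl2fastq, and the genome build is GRCm38. The deposited table holds RSEM expected counts per gene, with 0 values that were not whole, so none was rounded here; the sources used here give no strand setting and no annotation release.

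Low genes were removed with filterByExpr, libraries were scaled by TMM, and edgeR 4.0.16 under R 4.3.3 fitted its robust quasi-likelihood model with 1 mean per group and 8 residual degrees of freedom. Tests were two-sided, adjusted by Benjamini-Hochberg over 17457 genes with a threshold of 0.05. "Rose" and "fell" denote calls at that threshold. Errors of fold changes, called the SE of the fit, were derived from the test. Each is the absolute log2 fold change divided by the square root of the F statistic. The 95% intervals come from that SE with the residual degrees of freedom alone, so they are wider than the test. The procedure was tested on simulated data. DESeq2 1.42.0 and limma 3.58.1 served as alternatives, with other scalings, filters, the vomeronasal level as covariate, replicate blocks and each library left out. The fit without replicate 1 of both stimulated groups was added after the data were seen.

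Members and lists were chosen with earlier results of these data known. Members with all libraries given are the 4 with the smallest p in each role, up to 6 called per genotype comparison, and Atf4, Xbp1, Hspa5 and Ddit3; pathway genes named are up to 4 per list and direction; a few others are named with part of their values. Pairs of replicates within a group differed by 4.97 to 49.1 times the counting variance, so each library was counted as a sample of its own. Gene models came from GENCODE vM21 (GRCm38) and promoter windows from RefSeq (GRCm38.p6).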

Additional observations from a re-analysis of the deposited data

How the results depend on the processing

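Under DESeq2's size factors, no composition factor, the stricter filter (CPM of at least 1 in 3 libraries), limma voom and the additive replicate block, the counts of members called in each comparison stayed within 1.5 times those reported. The largest dependence was on the vomeronasal level as a covariate: ER-arm members called lower numbered 0 in Mirc11-/- and 1 in wild-type cells, Atf4-arm members 0 and 1, Atf4-arm members higher in wild-type cells 2, and members called between the stimulated genotypes 0. Over all genes tested that fit called 560 for stimulation in Mirc11-/- cells and 30 between the stimulated genotypes. Sign changes under this covariate were listed only for members called without it, and members called in neither fit were not searched for them. Among those called, the stimulation estimate changed sign in Mirc11-/- cells for Asns (0.26), Atf4 (0.58), Calr (0.24), Canx (0.21), Derl1 (0.42), Dnajb9 (0.01), Herpud1 (0.11), Mthfd2 (0.16), Pdia6 (0.25), Phgdh (0.44), Sel1l (0.09), Shmt2 (0) and Trib3 (0.73), and in wild-type cells for Asns (0.16), Pdia6 (0.03) and Trib3 (0.34). The difference between stimulated genotypes changed sign, again among called members, for Atf4 (0.12), Manf (0.1), Mthfd2 (0.15) and Ppp1r15a (0.05). None of these passed the test; the covariate follows stimulation closely, and the cause was not tested. Members called in the interaction numbered 1, Herpud1, with DESeq2, with no filter and without replicate 1 of both stimulated groups. That last fit also called 1 member between unstimulated genotypes and 1 Atf4-arm member (Ddit4) higher in Mirc11-/- cells, as did DESeq2 (1). With no filter, and with the replicate block within genotype, 0 Atf4-arm members were called higher in wild-type cells. With no filter the median of all genes moved to 0.77 in Mirc11-/- and 0.17 in wild-type cells.

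With single libraries left out, ER-arm members called lower numbered 17 to 18 in Mirc11-/- and 8 to 15 in wild-type cells, and Atf4-arm members 12 in each fit and 8 to 12. Atf4-arm members called higher numbered 0 to 1 and 0 to 2, members called between stimulated genotypes 1 to 23, and between unstimulated genotypes and in the interaction 0 throughout. Same-numbered libraries correlated at -0.07 to 0.23, with 3 of 6 pairs over 0.1 and 4 of 6 stimulated libraries correlating best with their own number, and since not every pair was over 0.1 the samples were not treated as paired, although the wild-type libraries each correlated best with their own number. The replicate block as an additive term called 12 ER-arm members lower in wild-type and 18 in Mirc11-/- cells and 20 members between stimulated genotypes; within genotype, the block called 13 and 18 (Calr, adjusted p = 0.0338, and Syvn1, 0.0279, among the wild-type ones), and Trib3 (-1.03, adjusted p = 0.107) and Ddit4 (0.84, adjusted p = 0.0875) lost their wild-type calls. The lowest count behind a member was 12 (Vldlr), and small changes in such genes were not detectable.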
